A study of Rattus norvegicus with 23 samples.

Results

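The genes of translation initiation were taken as every gene whose symbol is Eif followed by a digit, and 52 of the 10723 genes with a value per library fitted that rule. The same 52 symbols were among the 11283 genes of each of the authors' deposited tables of comparisons. All 52 passed the filter on low values, and the lowest recovered count of any of them in any library was 11 reads. They were read in the myocardium of Sprague-Dawley rats. In the MI+TRD groups the left coronary artery had been tied off to make a myocardial infarction (MI) and a device, which the labels name TRD without saying more, had been implanted in a second operation. In the MI groups the same infarction had been made without the device, so that the infarct was common to all libraries. At 12 weeks after the operation there were 6 MI+TRD and 6 MI libraries of polyadenylated RNA, with a normalized count per gene and library. At 6 weeks there were 5 MI+TRD and 6 MI libraries, used here through the authors' deposited table of the comparison. Neither the age and sex of the rats nor the part of the heart wall sampled is given in the labels, and no uninfarcted group was among the libraries.

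Initiation is the step at which a ribosome is placed on the start codon of an mRNA, and it is the step at which cells set most of their rate of protein synthesis. eIF2, with GTP, brings the initiator tRNA to the small ribosomal subunit, eIF3 holds that complex together, and eIF4F binds the cap of the mRNA and unwinds its leader, after which eIF1, eIF1A, eIF5 and eIF5B select the start codon and join the large subunit. The step is controlled at the cap, where the 4E-binding proteins hold eIF4E until mTORC1 phosphorylates them, and at eIF2, where stress-activated kinases block the recharging of eIF2 by eIF2B. In heart muscle both controls are known to act in growth of the myocytes and in their response to stress.

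The deposited values corresponded to 7197099 to 10304189 recovered reads per library. The initiation factor genes together took 0.640% to 0.688% of the column totals in MI+TRD and 0.467% to 0.646% in MI, where ribosomal RNA entries took 1.81% to 4.45% and 1.35% to 11.7%. The median gene lay at −0.14 (log2, MI+TRD over MI) in the deposited scale, so fold changes are given below also relative to that gene. The summed levels of 10 cardiomyocyte marker genes were 28051, 36985 and 39713 normalized counts in MI+TRD at the lowest, median and highest library, against 33562, 42113 and 55486 in MI. All 10 had reads in every library. Summed atrial markers (5 of 5 in the table, with Sln at 0 reads in some library) ran from 137 to 3341 in MI+TRD and from 221 to 11988 in MI. Summed epicardial and mesothelial markers (7 of 8, with Msln, Upk1b and Krt19 at 0 reads in some library) ran from 21.7 to 93.4 in MI+TRD and from 13.8 to 29.1 in MI. Summed macrophage markers ran from 25.5 to 290.2 in MI+TRD, highest in replicate 6, and from 28.2 to 60.2 in MI. The part of these differences in the values of the initiation factors was not tested. In pieces of tissue, fewer cells of a type and less RNA per cell cannot be told apart. The labels give no animal identifiers and no batch, so a p-value here covers the spread among these libraries, which may be technical.

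At 12 weeks no initiation factor gene passed the test over all genes. With limma, 0 of 52 had an adjusted p below 0.05 (the lowest was 0.133), as was the case for 0% of the 10655 genes tested, and edgeR on recovered reads gave 0 of 52 (0% of all genes) and DESeq2 0 of 52 (0.197% of all genes). At an unadjusted limma p below 0.05, 4 genes were higher in MI+TRD (7.69%, against 2.8% of all genes): Eif4g2, Eif1ax, Eif2s3 and Eif2a. Another 7 were lower (13.5%, against 19.1% of all genes): Eif2b2, Eif2b1, Eif5a, Eif2d, Eif4ebp1, Eif4a3 and Eif1b. For none of the 52 were the groups free of overlap, a state met in the higher direction by 0.113% and in the lower direction by 1.59% of all genes. Relative to the median gene, 30 of 52 lay above 0 (57.7%, against 50% of all genes), with a median of 0.06 and a range from −0.58 for Eif3k to 0.57 for Eif4g2.

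The count of genes on each side of an unadjusted p moved with the scaling and with single libraries. The 4 higher and 7 lower of the deposited scale became 6 and 2 with median ratios, 6 and 3 with quantile normalization, 11 and 0 with equal column totals, and 7 and 1 with equal totals once ribosomal RNA was set aside. Over all genes those splits were 298 higher and 2033 lower as deposited, 798 and 878, 701 and 1042, 1208 and 412, and 899 and 704. The median of the initiation factors relative to all genes was between 0.05 and 0.07 over these 5 scalings. Rescaling whole libraries moves all genes by nearly the same amount, which the subtraction removes, so that narrow range cannot test the median. The count of higher genes was 1 without MI replicate 1, 2 or 4 or without MI+TRD replicate 1, 4 or 5 (190 to 257 of all genes). The count of lower genes was 3 without MI replicate 2 (1582 of all genes). It was 4 without MI replicate 4 or without MI+TRD replicate 1, 4 or 5 (1430 to 1713 of all genes). It was 11 without MI+TRD replicate 6 (2332 of all genes) and 12 without MI replicate 6 (2075 of all genes). Without MI+TRD replicates 1, 4 and 5 together it was 0 higher and 0 lower, where 285 and 1032 of all genes were. The labels do not set these 3 libraries apart, and the split was taken from the values themselves. Where they are the lowest or the highest of their group, leaving them out moves the gene's value by construction, so it is no independent check.

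**Figure D1:**
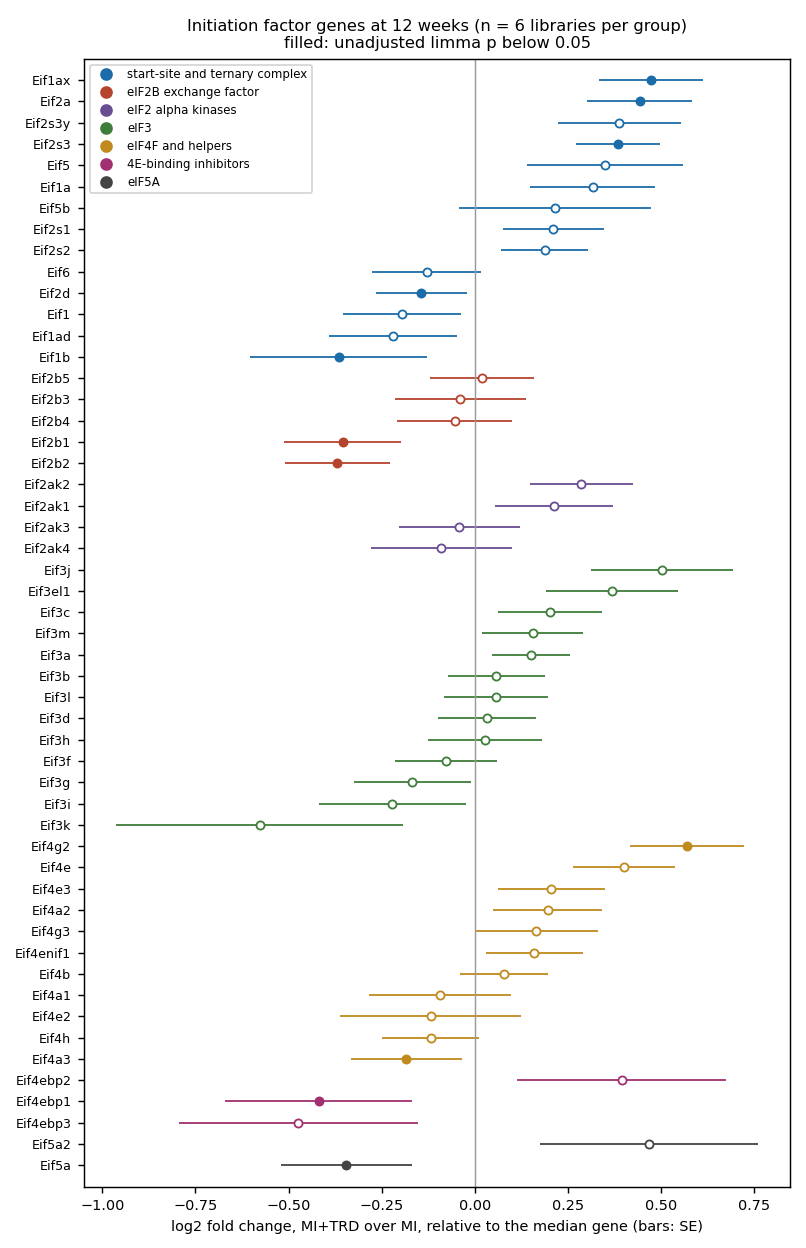
Log2 fold change of each of the 52 genes at 12 weeks (x axis, MI+TRD over MI, minus the median of all genes tested; bars show the SE; n = 6 libraries per group), grouped by complex. Filled points have an unadjusted limma p below 0.05; they number 4 on the right and 7 on the left, and the points run from −0.58 for Eif3k to 0.57 for Eif4g2.

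Promoter windows of RefSeq (build GRCr8, 250 bases before to 50 after the annotated start) matched 47 of the 52 symbols. The stretches below carry CACGTG, the E-box core bound by Myc and related factors, on either side of the median gene: Eif4e and Eif5a2 were above it at 12 weeks and Eif5a and Eif1b below it. Capitals mark the box.
Eif4e, chr2:229740503-229740718, plus strand: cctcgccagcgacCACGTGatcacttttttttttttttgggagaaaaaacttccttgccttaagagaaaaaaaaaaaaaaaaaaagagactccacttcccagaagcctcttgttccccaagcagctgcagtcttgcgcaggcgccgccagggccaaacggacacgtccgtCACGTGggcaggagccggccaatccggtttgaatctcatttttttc
Eif5a2, chr2:113657598-113657708, plus strand: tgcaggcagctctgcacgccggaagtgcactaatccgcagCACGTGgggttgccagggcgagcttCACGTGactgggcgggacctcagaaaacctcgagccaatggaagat
Eif5a, chr10:55143382-55143467, minus strand: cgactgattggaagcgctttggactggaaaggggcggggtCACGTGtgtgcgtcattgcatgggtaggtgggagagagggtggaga
Eif1b, chr8:129081064-129081149, plus strand: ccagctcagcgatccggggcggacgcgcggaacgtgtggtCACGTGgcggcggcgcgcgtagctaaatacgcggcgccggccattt
The boxes begin 237 and 80 bases before the start of Eif4e, 196 and 171 before that of Eif5a2, 206 before that of Eif5a and 54 before that of Eif1b. CACGTG, which reads the same on both strands, was in the windows of 8 of the 47 genes (17.0%). Counted per gene, it was found for 9.71% of the 8365 tested genes with a window. Counted per window, it was in 6.42% of all 33469. Besides these 4, the genes were Eif3a, Eif3b, Eif3f and Eif4h, and of the 8 genes 4 lay above and 4 below the median gene at 12 weeks.

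The other motif that bears on this machinery is the oligopyrimidine start, by which mRNAs of the translation apparatus are known to be placed under mTORC1. The motif was taken as a C followed by at least 4 pyrimidines, beginning within 5 bases of the annotated start on the gene strand. It was present for 11 of the 47 genes (23.4%), against 17.8% of tested genes with a window and 17.0% of all windows. The windows below show it for Eif2s3 and Eif2a, higher at an unadjusted p, and for Eif3f and Eif3m, which were not. Each window holds 15 bases before the start and 15 from it. Capitals mark the pyrimidines from the C of the motif to the end of the run or of the window. Pyrimidines before that C, as in Eif2s3, are in small letters.
Eif2s3, chrX:62933685-62933714, minus strand: ggcggcagccgagcattttCCTTTTCTCTC
Eif2a, chr2:144911345-144911374, plus strand: ccagcgcatgggtttCTCTTTCCgggacaa
Eif3f, chr1:172369047-172369076, plus strand: tcacgcccttccgttctagCCTCTCTCTTT
Eif3m, chr3:111897179-111897208, minus strand: cgtaacaccgtgtggtaccgCTCCTTTTCC
Of the 11 genes 7 lay above and 4 below the median gene. TGATGNAA, the core of the amino acid response element, was in the windows of 2 genes (4.26%), Eif2s2 and Eif3g. It was in 3.98% of all windows and found for 1.85% of tested genes with a window. TGACGTCA, the cyclic AMP response element, was in 0 of 47, against 1.83% and 3.26%. Both motifs were searched on both strands, and neither gene with TGATGNAA had CACGTG, while Eif3f and Eif5a2 had both CACGTG and the oligopyrimidine start.

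The genes of start-site selection and the ternary complex were spread to both sides. Of 14 genes, 3 were higher (Eif1ax, Eif2s3 and Eif2a) and 2 lower (Eif2d and Eif1b) at an unadjusted limma p below 0.05, against 2.8% higher and 19.1% lower of all genes. The relative median was 0.21 (log2), none passed after adjustment, and the counts were 0 and 0 without MI+TRD replicates 1, 4 and 5. Eif1ax, the X-linked gene of eIF1A, which opens the small subunit for scanning, lies at chrX:37579959-37595301 in rn6. Its normalized counts were 45.2, 53.2 and 64.3 in MI+TRD at the lowest, median and highest library, against 33.3, 42.6 and 53.7 in MI. The MI libraries divided, with 37.7, 33.3 and 37.02 in replicates 1, 2 and 4, below every MI+TRD library, and 47.6, 49.4 and 53.7 in replicates 3, 5 and 6, inside the MI+TRD range. MI replicates 1, 2 and 4 lay below 3, 5 and 6 in further members too, such as Eif2s3y and Eif4a2. The share of all genes with that division is not given here, so it cannot be read as a trait of these members. The log2 fold change of Eif1ax was 0.33 (SE 0.14), or 0.47 relative to the median gene (limma adjusted p = 0.189). Eif1a, an autosomal copy of the same factor that can share reads with it, measured 10.97, 16.2 and 19.8 in MI+TRD against 9.19, 14.8 and 16.2 in MI, at a relative log2 fold change of 0.32 (limma adjusted p = 0.585).

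Eif2s3 encodes the gamma subunit of eIF2, which holds GTP and the initiator tRNA. At chrX:63268106-63291126 it measured 54.7, 60.5 and 77.9 normalized counts in MI+TRD against 46.4, 52.7 and 56.7 in MI. Each of the 6 MI+TRD libraries exceeded the MI median, and 4 of them exceeded every MI library, while replicates 2 and 3 lay inside the MI range. On the log2 scale the fold change was 0.24 (SE 0.11), or 0.39 relative to the median gene (limma adjusted p = 0.225). Its near-copy on the Y chromosome, Eif2s3y, had 0.39 (limma adjusted p = 0.410), and the share of reads that each received is unknown. The alpha subunit, Eif2s1, the target of the eIF2 kinases, measured 19.2, 22.3 and 25.8 in MI+TRD against 14.9, 23.1 and 23.9 in MI. The lowest of the 12 libraries was MI replicate 4, the groups overlapped, and the relative log2 fold change was 0.21 (limma adjusted p = 0.816), as was 0.19 for the beta subunit Eif2s2 (limma adjusted p = 0.862).

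Eif2a encodes a separate factor that can carry the initiator tRNA without eIF2. At chr2:148722432-148755579 it measured 12.5, 14.2 and 21.1 normalized counts in MI+TRD against 10.1, 11.99 and 13.9 in MI. MI+TRD replicate 5 stood well above the other MI+TRD libraries, which ended at 14.7, and replicates 2 and 3 lay inside the MI range. The log2 fold change was 0.30 (SE 0.14), or 0.44 relative to the median gene (limma adjusted p = 0.225). Eif2d, whose product recycles ribosomes and can deliver tRNA to them, lay the other way, at 10.98, 13.6 and 14.9 in MI+TRD against 13.9, 15.7 and 19.4 in MI. Only MI+TRD replicate 4, at 14.9, exceeded the lowest MI library. Its log2 fold change was −0.29 (SE 0.12), or −0.14 relative to the median gene (limma adjusted p = 0.193).

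Among the factors that act at the start codon, Eif1 and Eif1b encode near-identical forms of eIF1, the fidelity factor, and could share reads. Eif1 measured 94.1, 119.9 and 169 in MI+TRD against 134, 142 and 193 in MI, and Eif1b 5.49, 8.97 and 14.5 in MI+TRD against 11.2, 11.8 and 18.7 in MI. For both genes MI+TRD replicates 1, 4 and 5 lay below every MI library, and MI+TRD replicate 2 lay above the MI median. The relative log2 fold changes were −0.19 for Eif1 and −0.37 for Eif1b (limma adjusted p = 0.228 and 0.225). Eif5, which triggers GTP hydrolysis by eIF2, had 0.35 (limma adjusted p = 0.607), with MI replicate 4 lowest of all at 47.5 normalized counts. Eif5b, which joins the subunits, measured 35.96, 50.6 and 94.2 in MI+TRD against 35.3, 53.7 and 82.3 in MI, at a relative log2 fold change of 0.22 with an SE of 0.26 (limma adjusted p = 0.902). Its MI+TRD libraries divided into 57.4, 84.6 and 94.2 in replicates 1, 4 and 5 and 35.96, 43.9 and 37.0001 in replicates 2, 3 and 6, and without replicates 1, 4 and 5 the relative value was −0.27. Eif6, which keeps the large subunit from joining too early, measured 14.1, 17.5 and 22.3 in MI+TRD against 17.8, 21.2 and 25.1 in MI, with 5 of 6 MI+TRD libraries below the MI median, 4 of them below every MI library, and the highest, replicate 6, above it. Its relative log2 fold change was −0.13 (limma adjusted p = 0.297) and became 0.05 without MI+TRD replicates 1, 4 and 5.

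**Figure D2:**
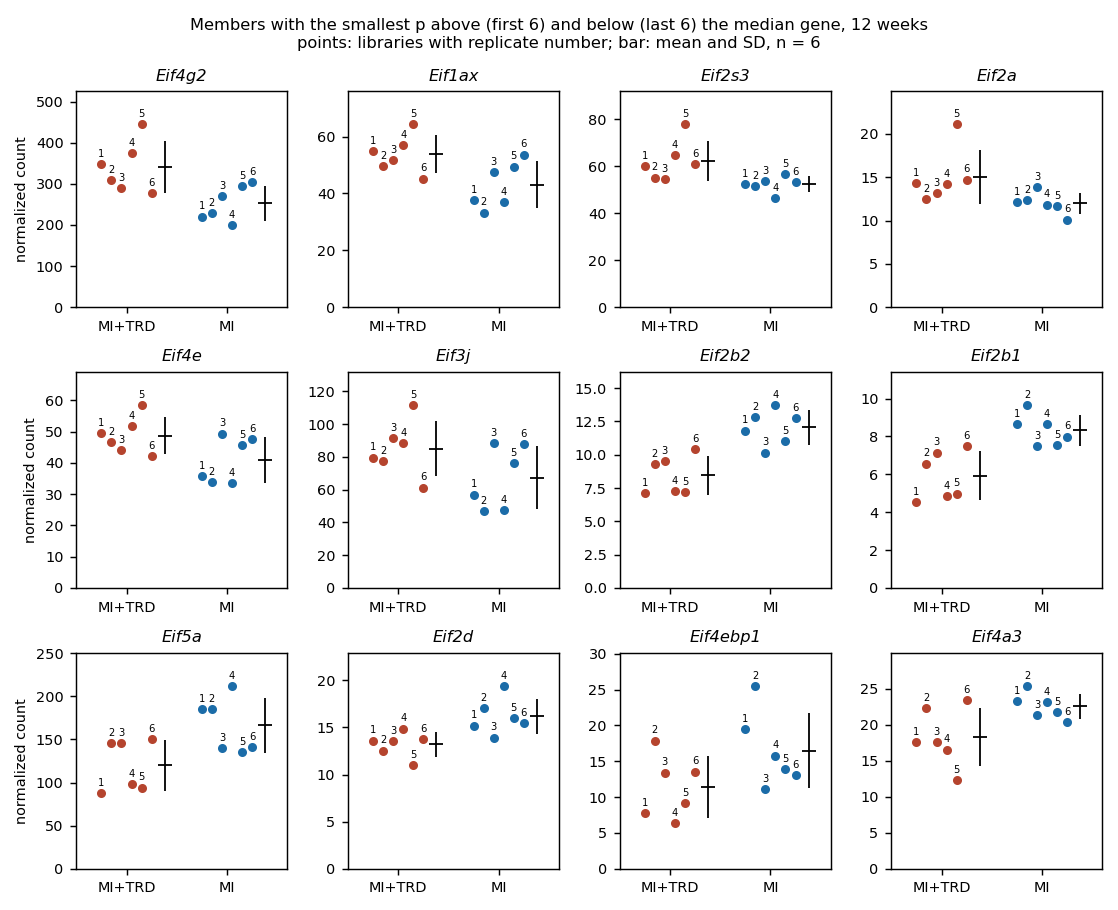
Normalized counts per library at 12 weeks (y axis, starting at 0) for the 6 genes with the smallest limma p above the median gene and the 6 below it, with MI+TRD in red and MI in blue, replicate numbers beside the points, and a bar for the mean and SD (n = 6 each). No panel is free of overlap; in Eif5a, Eif2b1 and Eif4ebp1 the lowest points are MI+TRD replicates 1, 4 and 5.

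The exchange factor eIF2B, which reloads eIF2 with GTP and is the point at which phosphorylated eIF2 acts, had its clearest differences in the alpha and beta subunits of its regulatory part. Eif2b2 and Eif2b1 were lower in MI+TRD at an unadjusted limma p below 0.05 (40%, against 19.1% of all genes). The other 3 of the 5 subunits were not, and the relative median over the 5 was −0.05 (log2). The count of 2 lower genes was the same with median ratios, quantile normalization, edgeR or DESeq2. It was 1 with equal totals without ribosomal RNA, where 704 of all genes were lower. It was 0 with equal totals (412 of all genes) and 0 without MI+TRD replicates 1, 4 and 5 (1032 of all genes). Eif2b2, the beta subunit gene at chr6:109044830-109051255, measured 7.09, 8.28 and 10.4 normalized counts in MI+TRD against 10.2, 12.3 and 13.7 in MI. Of the 6 MI+TRD libraries 5 lay below every MI library, and replicate 6, at 10.4, lay just above the lowest MI library, at 10.2. Its log2 fold change was −0.51 (SE 0.14), or −0.37 relative to the median gene (limma adjusted p = 0.133).

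Eif2b1, the alpha subunit gene at chr12:37444136-37452392, showed the same arrangement. It measured 4.55, 5.77 and 7.48 in MI+TRD against 7.47, 8.32 and 9.65 in MI, with 5 of 6 MI+TRD libraries below every MI library and replicate 6 level with the lowest of them. On the log2 scale the fold change was −0.50 (SE 0.16), or −0.35 relative to the median gene (limma adjusted p = 0.133). In both genes replicates 1, 4 and 5 were the lowest of the MI+TRD libraries, and without them the relative values were −0.15 for Eif2b2 and −0.08 for Eif2b1. Eif2b5, the catalytic epsilon subunit whose mutations cause vanishing white matter disease in humans, measured 22.7, 24.2 and 35.1 in MI+TRD against 23.1, 28.2 and 34.9 in MI. Replicate 5 was the highest MI+TRD library and the other 5 lay below the MI median. Its relative log2 fold change of 0.02 (limma adjusted p = 0.652) turned to −0.06 without that library, −0.02 without MI replicate 5 and −0.12 without MI+TRD replicates 1, 4 and 5. Eif2b3 and Eif2b4, the gamma and delta subunits, lay at −0.04 and −0.05 relative to the median gene.

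None of the 4 kinases that phosphorylate eIF2 passed a test in either direction, adjusted or not. At an unadjusted limma p below 0.05, 2.8% of all genes were higher and 19.1% lower. Eif2ak1, the haem-regulated kinase HRI, measured 9.91, 13.03 and 17.1 in MI+TRD against 10.6, 12.4 and 15.3 in MI. Eif2ak2, the double-stranded RNA kinase PKR, measured 19.3, 21.4 and 24.2 in MI+TRD against 14.02, 20.9 and 23.5 in MI. Both sets of libraries overlapped over most of their range, and the relative log2 fold changes were 0.21 and 0.29 (limma adjusted p = 0.840 and 0.585). Eif2ak3, the kinase PERK of the endoplasmic reticulum, measured 4.59, 6.26 and 9.47 in MI+TRD against 6.34, 7.29 and 8.38 in MI. Eif2ak4, the amino acid sensor GCN2, measured 3.33, 4.86 and 6.80 in MI+TRD against 4.46, 5.90 and 7.23 in MI. MI+TRD replicate 6 was the highest MI+TRD library of both and replicate 5 the lowest, and the relative values were −0.04 and −0.09 (limma adjusted p = 0.547 and 0.507). Without MI+TRD replicates 1, 4 and 5 the relative values were −0.01 for Eif2ak1, 0.10 for Eif2ak3 and 0.08 for Eif2ak4, each with its sign turned.

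Downstream of those kinases stands the integrated stress response, in which Atf4 is translated when eIF2 is blocked and switches on genes of amino acid supply. Of 17 such genes tested 0 were higher and 3 lower at an unadjusted limma p below 0.05 (17.6%, where 19.1% of all genes were lower), and 0 passed after adjustment. The relative median was −0.05, and 0.12 without MI+TRD replicates 1, 4 and 5. The 3 were Ddit3, a transcription factor of prolonged stress, Ppp1r15a, whose product returns eIF2 to its unphosphorylated form, and Shmt2, a mitochondrial enzyme of serine metabolism. Ddit3 measured 15.7 ± 7.76 in MI+TRD and 25.03 ± 4.47 in MI (SD, n = 6 each), with a relative log2 fold change of −0.66 (limma adjusted p = 0.140). Ppp1r15a measured 39.8 ± 18.2 in MI+TRD and 58.6 ± 17.01 in MI and had −0.50 (limma adjusted p = 0.195). Shmt2 measured 15.1 ± 4.65 in MI+TRD and 24.2 ± 2.94 in MI and had −0.59 (limma adjusted p = 0.133), and in the authors' deposited table for 12 weeks it had a ratio of 0.606 at a false discovery rate of 0.0456. Atf4 itself measured 67.1 ± 23.5 in MI+TRD and 88.9 ± 27.3 in MI, at −0.28 (limma adjusted p = 0.303). These genes are regulated in part at translation, which mRNA levels do not show.

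The eIF3 scaffold held the widest spread of the complexes. None of its 13 genes passed at an unadjusted limma p below 0.05, where 2.8% of all genes were higher and 19.1% lower. The relative median was 0.06, from −0.58 for Eif3k to 0.50 for Eif3j, and −0.01 without MI+TRD replicates 1, 4 and 5. Eif3j encodes a loosely held subunit that reaches into the mRNA channel of the small subunit. It measured 61.3, 83.9 and 112 normalized counts in MI+TRD against 46.9, 66.6 and 88.4 in MI. The MI libraries divided as for Eif1ax, with 56.97, 46.9 and 47.7 in replicates 1, 2 and 4 and 88.4, 76.3 and 87.6 in replicates 3, 5 and 6, and MI+TRD replicate 6 was the lowest of its group at 61.3. The log2 fold change was 0.36 (SE 0.19), or 0.50 relative to the median gene (limma adjusted p = 0.284). Eif3a, the large subunit on which the others assemble, varied little between libraries, at 122, 138 and 146 in MI+TRD against 120.5, 136 and 151 in MI, with the MI+TRD range inside that of MI and a log2 fold change of 0.01 (SE 0.11) (limma adjusted p = 0.973).

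Eif3k, a peripheral subunit, measured 1.70, 3.51 and 5.89 in MI+TRD against 2.48, 6.78 and 10.2 in MI. In MI+TRD the libraries stood at 1.70, 2.06 and 2.16 in replicates 1, 4 and 5 and 4.87, 5.81 and 5.89 in replicates 2, 3 and 6, while MI replicates 5 and 6, at 3.08 and 2.48, lay among the lowest of all. Its log2 fold change was −0.72 (SE 0.39), or −0.58 relative to the median gene (limma adjusted p = 0.292), and without MI+TRD replicates 1, 4 and 5 the relative value was 0.13. Eif3i, of the module that eIF3b anchors, measured 7.19, 10.6 and 12.1 in MI+TRD against 8.90, 14.7 and 17.02 in MI, where replicates 5 and 6 were again the lowest at 8.90 and 8.99. All 6 MI+TRD libraries lay below the MI median and the relative log2 fold change was −0.22 (limma adjusted p = 0.298). Among the remaining subunits, Eif3el1, annotated as a gene like Eif3e, had 0.37, Eif3c 0.20, Eif3m 0.16, Eif3b 0.06, Eif3l 0.06, Eif3d 0.03, Eif3h 0.03, Eif3f −0.08 and Eif3g −0.17. Eif3e itself was not analysed here.

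In the cap-binding group, the scaffold-like gene Eif4g2 stood highest of all 52. Of the 11 genes of eIF4F and its helpers 1 was higher (Eif4g2) and 1 lower (Eif4a3) at an unadjusted limma p below 0.05, against 2.8% and 19.1% of all genes. The relative median was 0.16, and 0.05 without MI+TRD replicates 1, 4 and 5. Eif4g2, at chr1:175883362-175895511, encodes DAP5, a relative of eIF4G that lacks the part binding eIF4E and serves initiation without the cap complex. It measured 278, 329 and 445 normalized counts in MI+TRD against 199, 250.3 and 304 in MI. Each of the 6 MI+TRD libraries exceeded the MI median, and 4 of them exceeded every MI library, with replicate 5 highest, and MI replicates 1, 2 and 4 were the lowest of all at 220.3, 229.7 and 199. On the log2 scale the fold change was 0.43 (SE 0.15), or 0.57 relative to the median gene (limma adjusted p = 0.144). MI+TRD replicates 1, 4 and 5 were its 3 highest, at 349, 375 and 445, and without them the relative value was 0.38, with 0 initiation factor genes higher at an unadjusted p. In the authors' deposited table for 12 weeks it was the only initiation factor gene higher at a p below 0.05, with a ratio of 1.33 (p = 0.0214, false discovery rate 0.132), against 2.12% of all genes. Eif4g1 was not analysed here, and Eif4g3, the other full-length scaffold, had a relative log2 fold change of 0.17 (limma adjusted p = 0.955).

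Eif4e, the cap-binding protein itself, lies at chr2:243820696-243852632 in rn6 and carries the pair of E-boxes printed above. It measured 42.1, 47.96 and 58.5 in MI+TRD against 33.6, 40.8 and 49.4 in MI. Each of the 6 MI+TRD libraries exceeded the MI median, and the MI libraries again divided into 35.9, 33.9 and 33.6 in replicates 1, 2 and 4 and 49.4, 45.7 and 47.5 in replicates 3, 5 and 6. The log2 fold change was 0.26 (SE 0.14), or 0.40 relative to the median gene (limma adjusted p = 0.283). Eif4e2, a cap-binding repressor, and Eif4e3, a cap-binding relative, had relative values of −0.12 and 0.21, and Eif4enif1, which carries eIF4E to the nucleus and to RNA granules, had 0.16.

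Of the helicases, Eif4a1 and Eif4a2 encode near-identical forms of eIF4A, which unwinds the leader, and could share reads. Eif4a1 measured 56.96, 74.3 and 114 in MI+TRD against 77.7, 86.3 and 114 in MI. MI+TRD replicates 1, 4 and 5, at 64.5, 56.96 and 58.1, lay below every MI library and replicates 2, 3 and 6, at 109, 83.97 and 114, inside the MI range or level with its top. Eif4a2 measured 165, 182 and 237 in MI+TRD against 136, 187 and 219 in MI, with the groups overlapping throughout. The relative log2 fold changes were −0.09 for Eif4a1, which became 0.30 without MI+TRD replicates 1, 4 and 5, and 0.20 for Eif4a2 (limma adjusted p = 0.502 and 0.870). Eif4a3, the related helicase of the exon junction complex, measured 12.3, 17.6 and 23.4 in MI+TRD against 20.4, 22.5 and 25.4 in MI. MI+TRD replicates 2 and 6 lay inside the MI range and the other 4 below it, and the log2 fold change was −0.33 (SE 0.15), or −0.18 relative to the median gene (limma adjusted p = 0.220). Eif4b and Eif4h, which stimulate the helicase, had relative values of 0.08 and −0.12.

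The 3 inhibitors that hold eIF4E did not lie on the same side. Eif4ebp1 and Eif4ebp3 were below the median gene and Eif4ebp2 above it. Of the 3, 1, Eif4ebp1, was lower at an unadjusted limma p below 0.05, as were 19.1% of all genes. Eif4ebp1, at chr16:68954860-68968249, encodes the best known of these mTORC1 substrates. Its normalized counts were 6.38, 11.3 and 17.9 in MI+TRD against 11.1, 14.9 and 25.5 in MI. MI+TRD replicates 1, 4 and 5 lay at 7.79, 6.38 and 9.18, below every MI library, and replicates 2, 3 and 6 at 17.9, 13.4 and 13.6, inside the MI range. Its log2 fold change was −0.56 (SE 0.25), or −0.42 relative to the median gene (limma adjusted p = 0.210), and without those 3 libraries the relative value was 0.05.

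Eif4ebp2 measured 9.36, 15.7 and 25.8 in MI+TRD at the lowest, median and highest library against 8.64, 13.7 and 19.997 in MI, and here the order of the libraries was turned round. MI+TRD replicates 1, 4 and 5 had 19.9, 25.8 and 24.05 and replicates 2, 3 and 6 had 9.36, 11.4 and 9.87, with the groups overlapping. The relative log2 fold change was 0.39 (limma adjusted p = 0.646), and without replicates 1, 4 and 5 it was −0.18. Eif4ebp3, the gene with the shortest span of the 52 (1.75 kb), measured 0.633, 1.47 and 2.31 in MI+TRD against 1.08, 2.33 and 3.19 in MI. All 6 MI+TRD libraries lay below the MI median and 2 below every MI library, at a relative log2 fold change of −0.47 (limma adjusted p = 0.278).

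Genes of the mTORC1 axis, the kinase complex that phosphorylates the 4E-binding proteins and the S6 kinases, showed 0 higher and 5 lower of 19 tested at an unadjusted limma p below 0.05 (26.3%, where 19.1% of all genes were lower). The counts were 1 higher and 1 lower with median ratios, 3 and 1 with equal totals, and 0 and 2 with quantile normalization. The relative median was −0.01, and −0.07 without MI+TRD replicates 1, 4 and 5. It lay between −0.02 and 0.00 over the 5 scalings, a range kept narrow by the subtraction of the median gene. The 5 were Mlst8, a subunit of the complex, Akt1s1, its inhibitor PRAS40, Rps6kb2, an S6 kinase, Mknk1, a kinase of eIF4E, and Castor1, an arginine sensor. Akt1s1 was the member of this list without overlap between the groups, a state met in the lower direction by 1.59% of all genes. It measured 20.9, 23.3 and 27.5 in MI+TRD against 28.2, 33.1 and 40.4 in MI, with a relative log2 fold change of −0.34 (limma adjusted p = 0.133). In the authors' deposited table for 12 weeks its ratio was 0.699 at a false discovery rate of 0.0485. The other 4 had relative values of −0.26, −0.30, −0.29 and −0.29 in that order. Mtor itself measured 38.9 ± 10.6 in MI+TRD and 34.3 ± 7.02 in MI (SD, n = 6 each), at 0.30 (limma adjusted p = 0.654).

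The 2 genes of eIF5A, the factor that frees stalled ribosomes and carries the modified amino acid hypusine, lay on opposite sides. Eif5a, the general form, at chr10:56527083-56531484, measured 87.4, 122 and 150.3 normalized counts in MI+TRD against 136, 163 and 212 in MI. MI+TRD replicates 1, 4 and 5 had 87.4, 97.9 and 94.2, below every MI library, and replicates 2, 3 and 6 had 146, 145 and 150.3, within the MI range of 136 to 212. On the log2 scale the fold change was −0.49 (SE 0.18), or −0.34 relative to the median gene (limma adjusted p = 0.146), and the relative value was −0.01 without replicates 1, 4 and 5. Eif5a2, the form with restricted expression, measured 3.76, 5.09 and 6.84 in MI+TRD against 1.57, 4.44 and 7.96 in MI. The MI libraries held both extremes, with 1.57 in replicate 4 and 7.96 in replicate 5, and the relative log2 fold change was 0.47 with an SE of 0.29 (limma adjusted p = 0.554). Of the 2 enzymes that make hypusine, Dohh was lower at an unadjusted limma p below 0.05, as were 19.1% of all genes. Its groups did not overlap, a state met in the lower direction by 1.59% of all genes. It measured 12.5, 14.1 and 14.8 in MI+TRD against 15.4, 19.03 and 23.2 in MI, at a relative log2 fold change of −0.30 (limma adjusted p = 0.133). Dhps had −0.11 (limma adjusted p = 0.265). Eif5al1 was not analysed here.

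Over all genes, and in these complexes among them, MI+TRD replicates 1, 4 and 5 stood apart from replicates 2, 3 and 6, in both directions. They held the 3 lowest MI+TRD values of 12 of the 52 genes (23.1%, against 19.3% of all genes): Eif1, Eif1b, Eif2b1, Eif2b2, Eif2s3y, Eif3k, Eif4a1, Eif4a2, Eif4ebp1, Eif5, Eif5a and Eif6. They held the 3 highest of 14 (26.9%, against 17.8% of all genes): Eif1ax, Eif2ak1, Eif2ak2, Eif2b5, Eif3c, Eif3d, Eif4b, Eif4e, Eif4e3, Eif4ebp2, Eif4enif1, Eif4g2, Eif4g3 and Eif5b. The summed endothelial markers (5 of 5, with none at 0 reads) divided these libraries in the same way, at 544, 625 and 525 normalized counts in replicates 1, 4 and 5 and 272, 334 and 350.3 in replicates 2, 3 and 6, against 388 to 553 in MI. The sums of the cardiomyocyte, atrial, fibroblast, macrophage, epicardial and mesothelial, erythroid and smooth muscle markers did not divide them so. Genes of short genomic span were low in those libraries: over the 353 genes spanning up to 2 kb, the median deviation from the MI mean, relative to the library median, was −0.68, −0.51 and −0.54 (log2) in replicates 1, 4 and 5 and 0.01, −0.06 and −0.05 in replicates 2, 3 and 6. In MI it ran from −0.19 to 0.17. The number of genes at 0 reads was 119, 114 and 178 in MI+TRD replicates 1, 4 and 5, 13 to 46 in MI+TRD replicates 2, 3 and 6, and 28 to 75 in MI. The part of these markers, spans and counts in the values of the initiation factors was not tested.

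**Figure D3:**
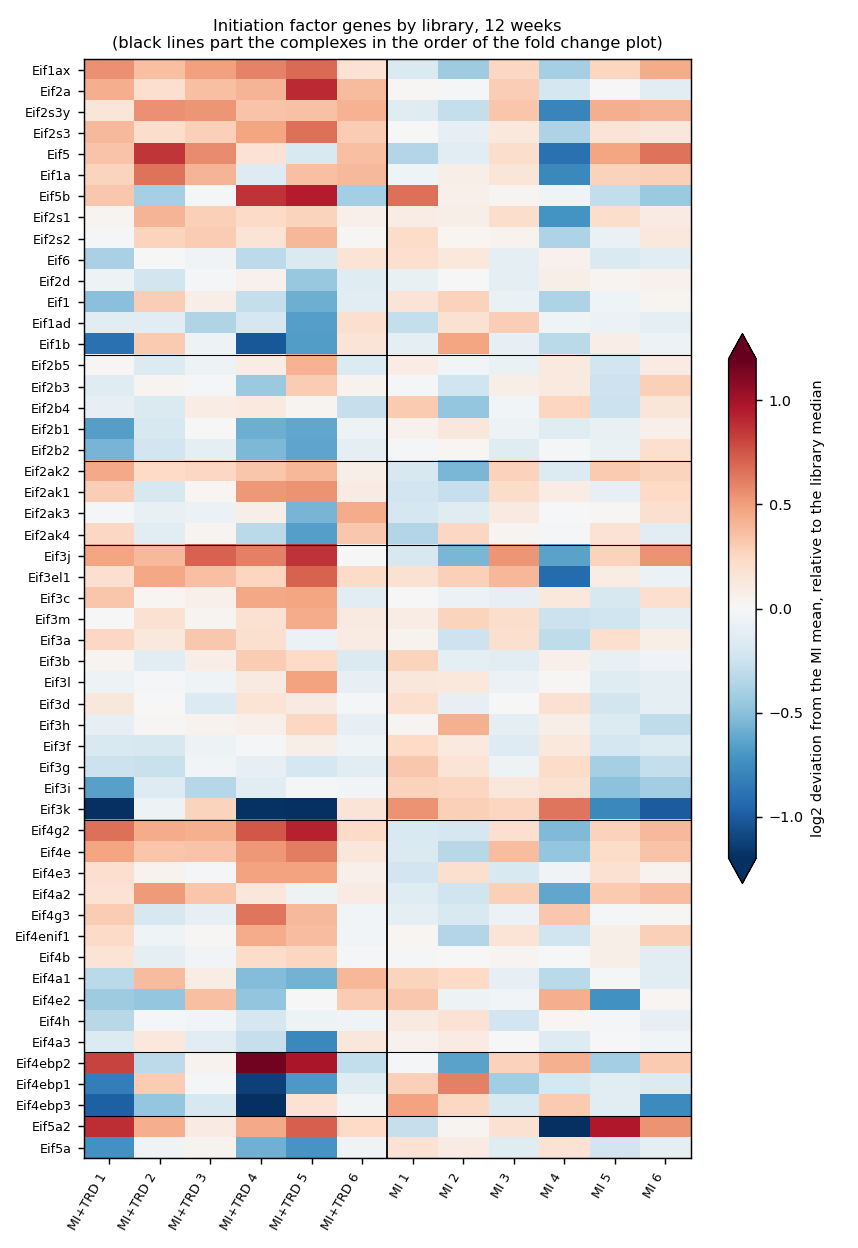
Log2 deviation of each of the 52 genes (rows, grouped by complex) from its mean over the MI libraries, relative to the library median, in the 6 MI+TRD and 6 MI libraries at 12 weeks (columns); red is above and blue below, and the scale ends at 1.2 on either side. MI+TRD replicates 1, 4 and 5 share blue cells in Eif1b, Eif3k, Eif4ebp1 and Eif5a and red cells in Eif4ebp2 and Eif5b, and MI replicate 4 has blue cells in Eif5, Eif3el1 and Eif5a2.

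The initiation factors of short span lay lowest, while those of 10 to 30 kb and over 30 kb had like medians. The 18 genes spanning up to 10 kb had a median relative log2 fold change of −0.19, with 3 of them above 0, and all 2965 genes of that span had −0.19. The 20 genes spanning 10 to 30 kb had 0.19, with 16 above 0, and the 3530 genes of that span had −0.03. The 14 genes over 30 kb had 0.19, with 11 above 0, and the 4160 genes of that span had 0.13. The genes lower at an unadjusted p ran from a span of 2.62 kb for Eif1b to 18.9 kb for Eif2d, and the higher ones from 12.2 kb for Eif4g2 to 33.1 kb for Eif2a.

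**Figure D4:**
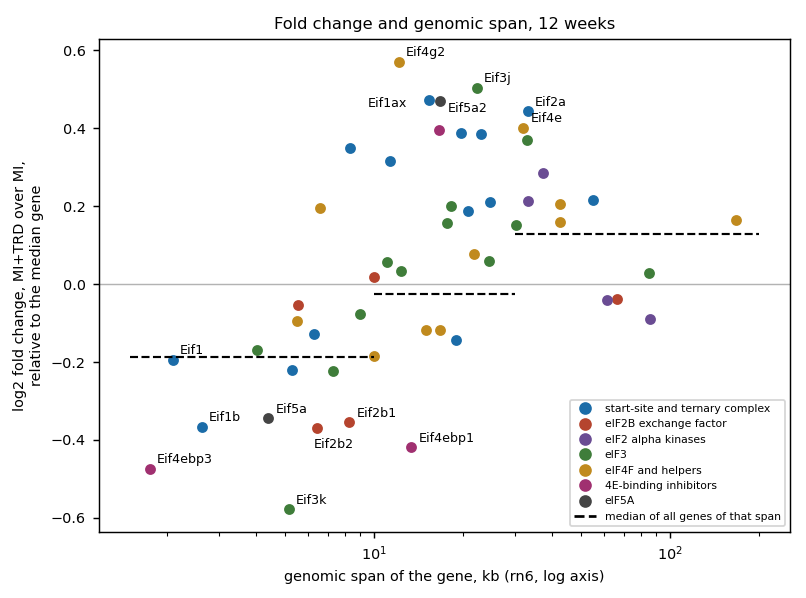
Log2 fold change relative to the median gene at 12 weeks (y axis, MI+TRD over MI) against the genomic span of each of the 52 genes in rn6 (x axis, log scale), coloured by complex. Dashed lines are the medians of all genes of up to 10 kb (−0.19), 10 to 30 kb (−0.03) and over 30 kb (0.13); the initiation factors of up to 10 kb have a median of −0.19.

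At 6 weeks few initiation factors differed at any threshold. In the authors' deposited table for 6 weeks 0 of 52 had a false discovery rate below 0.05 (0% of all 11283 genes), the lowest being 0.458. At a p below 0.05 in the authors' deposited table for 6 weeks 1 was higher (Eif4ebp1; 1.92%, against 4.42% of all genes) and 1 lower (Eif5b; 1.92%, against 4.09%), and the median log2 ratio relative to the median gene was −0.0002. In the authors' deposited table for 12 weeks 0 of 52 had a false discovery rate below 0.05 (2.94% of all genes), the lowest being 0.0578 for Eif2b1. There 1 was higher at a p below 0.05 (Eif4g2, as above) and 15 were lower (28.8%, against 22% of all genes), with a median of 0.05 relative to the median gene. That gene lay at −0.04 (log2) at 6 weeks and −0.16 at 12 weeks.

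Eif4ebp1 lay on opposite sides at the 2 times in the authors' deposited tables. At 6 weeks the authors' deposited least-squares means were 16.5 in MI+TRD and 11.8 in MI, a ratio of 1.41 (p = 0.0405, false discovery rate 0.546). At 12 weeks the authors' deposited means were 11.6 in MI+TRD and 17.2 in MI, a ratio of 0.673 (p = 0.00930, false discovery rate 0.0900). Other members changed side too, among them Eif2b2 (ratios of 1.09 and 0.685) and Eif5a (1.08 and 0.703). For Eif4ebp1 at 12 weeks, MI+TRD replicates 1, 4 and 5 lay below every MI library and replicates 2, 3 and 6 inside the MI range, as given above. The difference between the times was not tested. Eif4ebp2 had a ratio of 1.26 at 6 weeks and 1.23 at 12 weeks, and Eif4ebp3 0.609 and 0.616, in the authors' deposited tables.

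Eif5b had the lowest ratio of the 52 at 6 weeks. Its least-squares means in the authors' deposited table were 50.4 in MI+TRD and 97.5 in MI, a ratio of 0.517 (p = 0.0189, false discovery rate 0.458), and its ratio at 12 weeks was 1.08. Besides the genes above, the highest ratios in the authors' deposited table for 6 weeks were those of Eif1a (1.26) and Eif5a2 (1.22), at 1.11 and 1.15 at 12 weeks. The lowest were those of Eif3k (0.758) and Eif3i (0.829), at 0.577 and 0.741 at 12 weeks. For the genes that headed the 12-week ranking, the ratios in the authors' deposited table for 6 weeks were 1.04 for Eif4g2, 1.11 for Eif1ax, 0.997 for Eif2s3, 0.951 for Eif2a, 1.09 for Eif2b2, 0.950 for Eif2b1 and 1.08 for Eif5a. No values per library were used at 6 weeks, so the spread behind these ratios is not shown here.

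**Figure D5:**
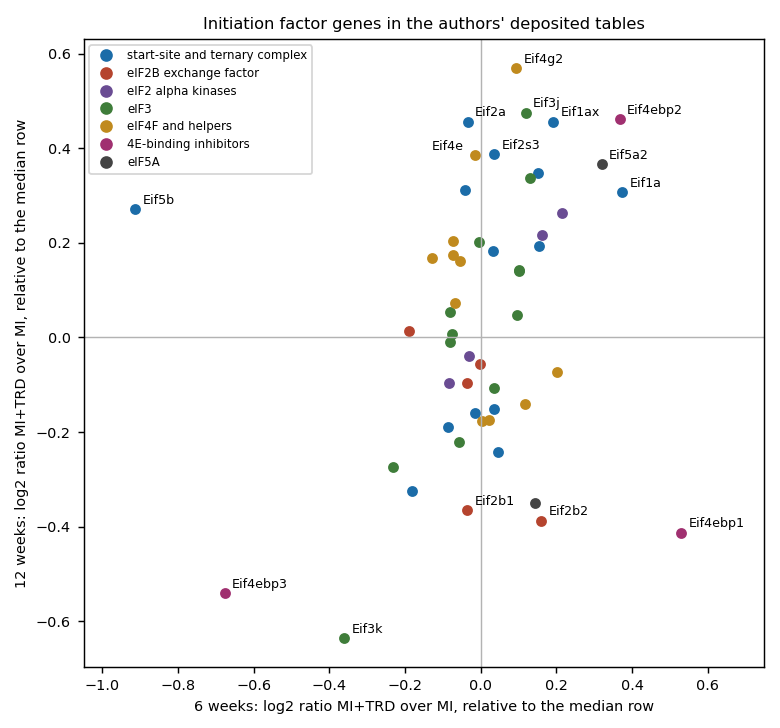
Log2 ratio of MI+TRD over MI for the 52 genes in the authors' deposited tables at 6 weeks (x axis) and 12 weeks (y axis), each relative to the median gene of its table, coloured by complex. Eif4ebp1 lies at the lower right (ratios of 1.41 and 0.673), Eif5b at the far left (0.517 and 1.08) and Eif4g2 at the top (1.04 and 1.33).

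Among genes of the integrated stress response in the authors' deposited table for 6 weeks, 4 of 19 were higher at a p below 0.05 (4.42% of all genes) and 0 lower, with 0 at a false discovery rate below 0.05. They were Asns, asparagine synthetase, at a ratio of 1.74, the amino acid transporters Slc7a5 at 2.09 and Slc7a11 at 14.1, and Chac1, a glutathione-degrading enzyme, at 4.34. In the authors' deposited table Chac1 had least-squares means of 0.919 in MI+TRD and 0.212 in MI, and Slc7a11 had 1.182 in MI+TRD and 0.0838 in MI. Asns had 1.31 in MI+TRD and 0.754 in MI, so the ratios of Chac1, Slc7a11 and Asns rest on low values. At 12 weeks the authors' deposited ratios were 1.05 for Asns, 1.13 for Slc7a5, 4.84 for Slc7a11 and 1.93 for Chac1, none at a p below 0.05. The Slc7a11 ratio at 12 weeks rests on 1 library, since Slc7a11 had 0.0392, 0.0728 and 5.13 normalized counts in MI+TRD at the lowest, median and highest library, against 0.0408, 0.0755 and 0.451 in MI.

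Proteins that work beside the initiation factors were described in the same way at 12 weeks. Of 13 partners in cap binding and scanning 2 were higher and 0 lower at an unadjusted limma p below 0.05 (15.4% higher, against 2.8% of all genes). The relative median was 0.24, and 0.12 with 1 higher without MI+TRD replicates 1, 4 and 5. Ddx3x, an RNA helicase that helps scanning through structured leaders, measured 142, 149 and 174 in MI+TRD against 54.7, 107 and 144 in MI, with a relative log2 fold change of 0.76 (limma adjusted p = 0.133). Paip1, which links the poly(A)-binding protein to eIF4A, measured 29.4, 32.3 and 34.8 in MI+TRD against 15.2, 27.2 and 32.2 in MI, at 0.51 (limma adjusted p = 0.213). Of 9 elongation genes and 2 termination genes 0 passed either way, with relative medians of −0.10 and 0.30. Of 6 genes of mitochondrial initiation and elongation 3 were lower and 0 higher (19.1% of all genes were lower), with a relative median of −0.23: Tufm at −0.47, Tsfm at −0.23 and Gfm1 at −0.23. That count was 1 with median ratios and 0 with equal totals, edgeR or DESeq2, and without MI+TRD replicates 1, 4 and 5 it was 1 with a median of −0.09. Cytosolic ribosomal proteins, with which initiation factors assemble, had a relative median of −0.34 over 78 genes, with 30 lower and 0 higher (38.5%, where 19.1% of all genes were lower), at a median span of 2.92 kb. Lower ribosomal protein genes numbered 11 with median ratios, 2 with equal totals, 13 when MI+TRD replicate 1 was left out and 50 when replicate 6 was, and without MI+TRD replicates 1, 4 and 5 they numbered 0, with a relative median of 0.04. For comparison, the initiation factors had a median span of 16.6 kb and a relative median of 0.06, and no test of the difference between these lists was made.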

How the data were processed

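Polyadenylated RNA of rat myocardium was sequenced as short reads (Illumina), per the labels' protocols. Partek and the build rn6 are the entries of the submitters' processing notes. How reads were aligned, counted, assigned to a strand, annotated, scaled and modelled is not given in the sources used here, so near-identical and overlapping genes can share reads in an unknown way. The values per library at 12 weeks are a signal, the authors' deposited normalized counts. Most low values fell on whole steps of the library's smallest value, taken as reads plus 1 times that step; 97.2% to 98.6% of values of up to 20 steps were whole to within 0.1 of a step. The authors' deposited tables for 6 and 12 weeks give, per the file headers, a p-value, a step-up false discovery rate, a linear ratio of MI+TRD to MI, a signed fold change (a score that was not used) and the least-squares mean of each group.

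The test at 12 weeks was limma 3.58.1 (R 4.3.3) with a trended prior, two-sided, without covariates, on log2(value + 0.208), for the 10655 genes with a mean of at least 0.415 deposited units, with Benjamini-Hochberg adjustment over all of them and a threshold of 0.05. Fold changes on that scale understate the change of weakly read genes. A relative value has the median fold change of all genes tested subtracted. The alternatives included edgeR 4.0.16 and DESeq2 1.42.0 on the recovered reads, and the steps were tested on simulated data. Libraries of a group differed by more than sampling noise in every pair (chi-square over its degrees of freedom at least 14.7). Levels of different genes were not compared, because no transcript lengths were used. Values per library were printed for the 6 genes with the smallest limma p on each side of the median gene, for 15 genes of central role in any case (Eif4g1, also on that list, was not analysed here), and, at 6 weeks, ratios for the 4 highest and 4 lowest. The members, groups and pathway lists were chosen with earlier results of these data known. Values named outside that rule were chosen after they were seen.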

Additional observations from a re-analysis of the deposited data

Results flagged for a closer look

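Among 29 named genes, 58 groups of 6 libraries at 12 weeks were examined for a library far from the others, and 3 were found; chance alone sets apart about 1 in 20 groups. Eif2a, the factor that can carry the initiator tRNA without eIF2, had its highest MI+TRD value in replicate 5, at 21.1 normalized counts, far from the other 5 MI+TRD libraries. Eif2b5, the catalytic subunit of eIF2B, had its highest MI+TRD value in the same library, at 35.1 normalized counts. Eif2s1, the alpha subunit of eIF2, had its lowest MI value in replicate 4, at 14.9 normalized counts.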

How the results depend on the processing

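At 12 weeks 0 initiation factor genes passed an adjusted p of 0.05 under any alternative run. The counts at an unadjusted p, 4 higher and 7 lower as deposited, depended on the scaling and the libraries. Lower genes numbered 2 with median ratios, 3 with quantile normalization, 2 with edgeR and 2 with DESeq2. With equal totals 11 were higher and 0 lower, with equal totals without ribosomal RNA 7 and 1, and with library weights 0 and 3. Without MI+TRD replicates 1, 4 and 5 together the counts were 0 and 0, where 285 and 1032 of all genes were higher and lower. With each library left out in turn, higher genes numbered 1 to 5 and lower genes 3 to 12, the highest without MI replicate 6. Over all genes those counts ran from 190 to 348 higher and from 1430 to 2332 lower. The median relative to all genes ran from 0.036 to 0.111, the highest without MI+TRD replicate 6.

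Replicate numbers are shared between the groups in the labels, and the correlation of same-numbered deviations exceeded 0.1 in 4 of 6 pairs (0.327, 0.142, 0.194 and 0.121 for replicates 2 to 5) but was −0.246 and −0.330 for replicates 1 and 6. Not every pair passed, so the numbers were not taken to pair samples. With the replicate number as a block 2 genes were higher and 6 lower, and 0 passed after adjustment.

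Of the 29 named genes 11 turned their sign relative to the median gene under some alternative. Without MI+TRD replicates 1, 4 and 5 the values were 0.053 for Eif4ebp1, 0.050 for Eif4a3, −0.18 for Eif4ebp2, 0.30 for Eif4a1, −0.015 for Eif2ak1, 0.10 for Eif2ak3, 0.078 for Eif2ak4, −0.12 for Eif2b5, 0.048 for Eif6, −0.27 for Eif5b and 0.13 for Eif3k. With library weights Eif4a1 had 0.014. With single libraries left out, Eif2b5 ran from −0.056 to 0.074, Eif2ak3 from −0.120 to 0.066, Eif2ak4 from −0.158 to 0.027 and Eif4a1 from −0.196 to 0.0052. MI+TRD replicates 1, 4 and 5 were set apart by their values, so leaving them out is no independent check. The cause was not tested.

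In the authors' deposited tables, the false discovery rate left 0 higher and 0 lower at both times. The 6-week median of −0.0002 was 0.0097 without the lowest quartile by level and −0.039 without centring, and the 12-week median of 0.05 was −0.11 without centring. Centring moves every gene by the same amount. At 12 weeks the widest errors of the log2 fold change were those of Eif3k (SE 0.39) and Eif4ebp3 (SE 0.32), both with low counts. Eif2b3, also with low counts, had an SE of 0.18, and Eif5b, with higher counts, had 0.26. The part of the count in these errors was not tested.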

Other observations

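Ratios of pairs of genes within a library do not depend on the scaling of that library, and they are given here as values with no test. The pairs were chosen with the differences of these genes in the same libraries known, so the ratios are no independent check. Levels of different genes are not comparable, so only the difference between groups can be read. Eif4ebp1 over Eif4e, the inhibitor over its target, was 0.124 to 0.384 in MI+TRD with a median of 0.231, against 0.226 to 0.754 in MI with a median of 0.388. The MI+TRD libraries at 0.124 to 0.158 were replicates 1, 4 and 5, below every MI library. Eif2b2 over Eif2s1, a subunit of the exchange factor over a subunit of the factor it reloads, was 0.297 to 0.495 in MI+TRD with a median of 0.364, against 0.435 to 0.924 in MI with a median of 0.531. Eif2b1 over Eif2s1 was 0.206 to 0.355 in MI+TRD with a median of 0.245, against 0.316 to 0.582 in MI with a median of 0.379. In both ratios the highest MI library was replicate 4, in which Eif2s1 was lowest. Eif4g2 over Eif4g3, a pair of scaffold relatives, was 6.36 to 9.18 in MI+TRD with a median of 8.03, against 3.26 to 7.68 in MI with a median of 6.49. Eif4a1 over Eif4a2, the pair of eIF4A helicases, was 0.320 to 0.620 in MI+TRD with a median of 0.391, against 0.355 to 0.706 in MI with a median of 0.511. Eif5a over Eif5a2 was 12.8 to 38.6 in MI+TRD with a median of 23.9, against 17.0 to 135 in MI with a median of 36.6, the highest value being that of MI replicate 4. In each of these 6 ratios the groups overlapped.

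MI+TRD replicate 5 stood highest of its group in each of the 3 largest complexes. Relative to the MI mean and the library median, the median over the 14 genes of start-site selection and the ternary complex was 0.09 to 0.31 (log2) in MI+TRD and −0.37 to 0.14 in MI, with MI replicate 4 lowest. Over the 13 genes of eIF3 it was −0.03 to 0.24 in MI+TRD and −0.19 to 0.18 in MI. Over the 11 genes of eIF4F and its helpers it was 0.01 to 0.26 in MI+TRD and −0.16 to 0.07 in MI. Over all 52 genes it was 0.01 to 0.25 in MI+TRD, highest in replicate 5, and −0.05 to 0.04 in MI. MI+TRD replicate 5 also had the highest summed smooth muscle markers (4 of 4), at 698 normalized counts, against at most 201 in MI+TRD replicates 1 to 4 and 6, and 104 to 195 in MI. Its summed erythroid markers (6 of 7) were 772, against at most 489 in MI+TRD replicates 1 to 4 and 6, and 95.95 to 429 in MI. Summed fibroblast markers (7 of 7) were 1383 in that library, 718 to 3093 over MI+TRD, with replicate 6 highest, and 817 to 1163 in MI. None of these markers was at 0 reads in any library, and their part in the values above was not tested.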
